A study of Mus musculus with 6 samples.

Results

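The plasma membrane and lysosomal carriers of amino acids, of GABA, glycine and monoamine transmitters, and of related small molecules such as taurine and creatine were followed in mouse vagal ganglia. Members were taken by symbol: every gene in the count files named as a numbered member of the solute carrier families Slc1, Slc3, Slc6, Slc7, Slc36 or Slc38, apart from Slc1a3 and Slc6a2. This gave 56 of 32719 genes, of which 42 passed the filter on low counts and were tested among 16019 genes. The other 14 did not reach the filter's count level in enough libraries. The libraries came from wild-type C57BL/6J males, whose jugular-nodose ganglia house the cell bodies of the vagal afferents, and 3 libraries are titled control and 3 treated. Treated mice received the insulin receptor antagonist S961 in PBS from a subcutaneous osmotic pump, at 10 nmol per week over 2 weeks, and control mice received PBS by the same route. Ages are not stated. The treatment field names S961 for all 6 libraries, so the assignment of controls rests on the titles. The tissue field reads spinal cord and the cell fields read ganglia; neuron markers summed to 5160 to 6804 CPM (gene counts scaled to a common library size) and satellite glia markers to 2342 to 3488 CPM in every library. No label says whether replicates were separate animals or pools, so each p-value measures only the spread between these samples, which may be technical. The libraries held 12898607 to 33522486 gene counts, of which the 56 transporters took 0.177% to 0.243%.

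Amino acid carriers set how fast a cell takes up the building blocks of protein, and transmitter carriers end signalling by clearing glutamate, GABA, glycine or serotonin from the space around nerve endings. Many Slc7 proteins are light chains that reach the cell surface only when bound to a heavy chain of the Slc3 family, and Slc7a11 with Slc3a2 forms the exchanger that imports cystine for glutathione and exports glutamate. Vagal sensory neurons release glutamate, and in sensory ganglia the satellite glia around each cell body carry much of the glutamate and GABA uptake. Slc36a1 and Slc38a9 work at the lysosome, where amino acid levels are read by the mTORC1 pathway, and several plasma membrane members are targets of the amino acid response that runs through the transcription factor ATF4.

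Libraries differed in ways that touched these genes. Treated replicate 3, the smallest library, correlated with the other 5 at 0.920 to 0.944 across 12197 genes, against 0.968 to 0.989 among those 5. It had the highest summed level of fat cell markers, 483 CPM against 8.45 to 57.7 in the other 5, and of macrophage markers, 253 CPM against 31.3 to 71.6. It also had the lowest sum of nodose neuron markers, 221 CPM against 440 and 481 in treated replicates 1 and 2 and 604 to 617 in controls. All 3 treated libraries were thus below the controls. Jugular neuron markers summed to 406, 248 and 502 CPM in treated replicates 1, 2 and 3 and to 163 to 216 CPM in controls. Treated replicate 1 stood apart in another way: its 8 hepatocyte markers, a list added after the data were seen, summed to 255 CPM against 1.85 to 22.4 in the other libraries, with 5159 counts of albumin (Alb). In ganglia sampled whole, fewer cells of a type and less RNA per cell cannot be told apart. Transmitter genes of spinal inhibitory neurons were scarce in every library. Slc6a5, the carrier of glycinergic neurons, had counts of 3, 3 and 1 (controls) and 12, 0 and 9 (treated), and the vesicular GABA and glycine carrier Slc32a1 had 1, 1 and 3 against 0, 1 and 0.

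No transporter passed an adjusted p of 0.05 in edgeR's quasi-likelihood test over all genes, and neither did any other gene (percent called 0). Of the 42 tested transporters, 5 had an unadjusted p under 0.05 with a higher level in treated ganglia, which is 11.9% where the share over all genes was 4.0%. None was lower at that p, where the share over all genes was 2.67%, and in either direction it was 6.67%. Slc7a11, Slc6a4 and Slc7a3 passed the filter on low counts only with their treated libraries, where they were higher. The 11.9% thus depends in part on the filter, and no conclusion is drawn from it. With the filter at 5 CPM in 3 libraries, 26 transporters were left and 2 were higher at that p. Non-overlapping groups with treated on top were seen for 5 transporters (11.9%, against 7.07% of all genes) and with treated beneath for 4 (9.52%, against 7.63%), where either kind made up 14.7% of all genes. The median log2 fold change of the 42 was 0.04, beside 0.02 for all genes. There were 23 positive and 19 negative values, where 52.8% and 47.2% of all genes were positive and negative. Within 0.5 of 0 lay 33 of the 42 transporters and 13540 of the 16019 genes tested. The plot of fold changes by role shows most families close to 0, with Slc7a11, Slc6a4 and Slc7a3 to the right. The 4 largest values, of Slc7a11, Slc6a4, Slc7a3 and Slc38a4, were all in genes below 1 CPM per kb of exon. Under the other settings in which each gene was tested, the unadjusted p stayed under 0.05 in 14 of 14 for Slc7a11, 12 of 13 for Slc6a4, 11 of 15 for Slc38a2, 12 of 15 for Slc7a7 and 9 of 14 for Slc7a3. The filter at 5 CPM left Slc7a11, Slc6a4 and Slc7a3 untested, and Slc6a4 was also untested without treated replicate 2, its highest library. With DESeq2, 1 transporter passed at an adjusted p of 0.05 and 89 genes in all.

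**Figure D1:**
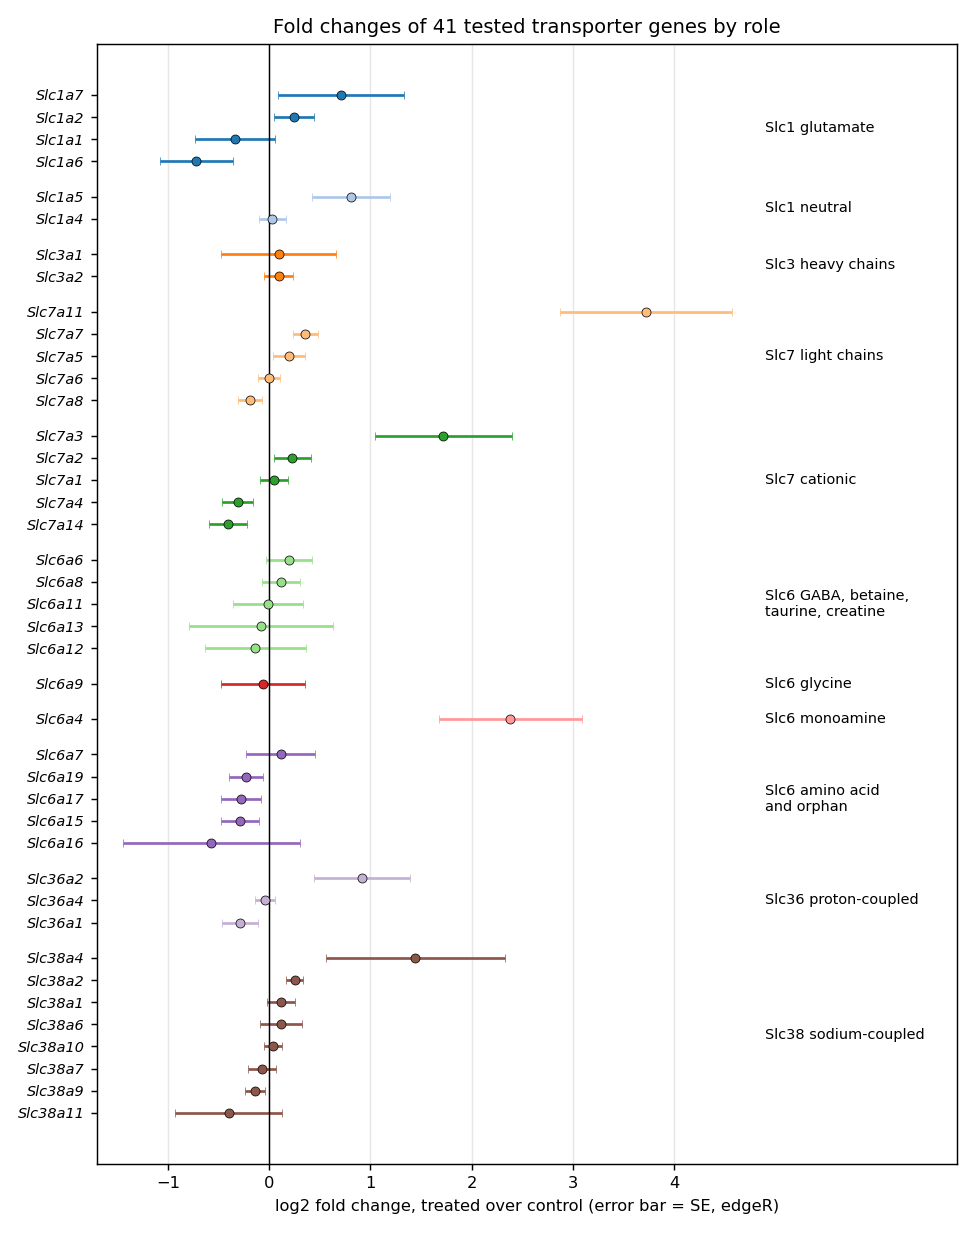
Log2 fold changes of treated over control with their SE for 41 of the 42 tested transporters, grouped by role. Most points lie within 0.5 of 0, and Slc7a11 at 3.72, Slc6a4 at 2.38 and Slc7a3 at 1.72 lie farthest to the right.

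Slc7a11, the light chain xCT of the cystine and glutamate exchanger, had the smallest p of all members (ENSMUSG00000027737, chromosome 3, 49892526 to 50443614, minus strand, GRCm38). Control libraries held 5, 4 and 0 counts of it and treated libraries 40, 47 and 44, or 0.287, 0.154 and 0 CPM against 1.19, 1.64 and 3.50 CPM. The groups did not overlap, and the controls were near the detection limit, since a count of 0 allows up to 3. The log2 fold change was 3.72 ± 0.85 (SE), with an unadjusted p of 0.00262 and an adjusted p of 0.595 in edgeR. Scaled by library size, the summed counts of 9 and 131 stood in a ratio of 11.3, with an exact binomial 95% interval of 5.78 to 25.3 that covers counting error only. DESeq2 gave a log2 fold change of 3.78 at an adjusted p of 0.00680, the single transporter call by any tool. Over the 14 other settings in which it was tested the log2 fold change ran from 3.17 to 4.44 and the unadjusted p stayed under 0.05 in all 14, while the adjusted p ran from 0.00680 to 0.995. Without treated replicate 3 its log2 fold change was 3.17 and without treated replicate 1 it was 3.99. Macrophage markers, which were higher in treated replicate 3, stood at -0.10 on the log2 scale relative to the control mean in treated replicate 1. Slc7a11 stood at 2.43 there. In treated replicate 3 these markers stood at 2.48 and Slc7a11 at 3.98. Jugular neuron markers stood at 1.05, 0.45 and 1.49 in treated replicates 1, 2 and 3, and nodose neuron markers at -0.59, -0.51 and -1.60. The part of these cells in the Slc7a11 values was not tested.

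The promoter of Slc7a11 is printed first because it holds a pair of matches to the amino acid response element, the DNA site through which ATF4 acts, and that of Slc7a7 because it also holds matches. Of the 5 members with an unadjusted p under 0.05, 4 had a promoter to search, and Slc7a3 did not. Each line runs 5′ to 3′ along the gene from 250 bases before a RefSeq start site, for 300 bases in all (GRCm38.p6, minus strand for both; the Slc7a7 window belongs to 1 of its 5 listed start sites). Capitals mark TGATGNAA on either strand.
Slc7a11, chr3:50443564-50443863: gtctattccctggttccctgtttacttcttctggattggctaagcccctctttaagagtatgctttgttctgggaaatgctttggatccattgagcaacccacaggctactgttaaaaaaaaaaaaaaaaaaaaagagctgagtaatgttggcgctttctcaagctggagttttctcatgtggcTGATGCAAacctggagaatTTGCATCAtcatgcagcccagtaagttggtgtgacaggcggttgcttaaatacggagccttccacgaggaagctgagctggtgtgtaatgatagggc
Slc7a7, chr14:54417895-54418194: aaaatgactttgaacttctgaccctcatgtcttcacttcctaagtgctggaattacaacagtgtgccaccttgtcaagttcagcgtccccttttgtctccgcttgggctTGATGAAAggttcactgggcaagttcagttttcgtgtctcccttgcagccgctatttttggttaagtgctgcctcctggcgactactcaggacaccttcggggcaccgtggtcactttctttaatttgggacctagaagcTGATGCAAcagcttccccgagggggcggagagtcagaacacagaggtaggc
In Slc7a11 the matches begin 66 and 47 bases before the start site, on opposite strands, and in Slc7a7 they begin 141 and 1 bases before it. RefSeq promoter sequences were found for 40 of the 56 member genes, 60 promoters in all. TGATGNAA occurred in 5 of those 60 (8.33%) and in 3.97% of all 32851 promoters, and the genes holding it were Slc1a4, Slc6a21, Slc7a7 and Slc7a11. Slc7a7 gave 2 of the 5, overlapping windows that share 1 site, and its other 3 windows held no match. The AP-1 motif TGANTCA was in 15.0% of member promoters and 7.81% of all, the E-box CACGTG in 13.3% and 7.15%, the antioxidant response element TGACNNNGC in 16.7% and 12.4%, and the cyclic AMP element TGACGTCA in 1.67% and 1.79%. Both strands were searched and motifs were counted apart even where they overlapped. None of these motifs was found in the Slc6a4 promoter, and the Slc38a2 promoter held the antioxidant response element alone, 27 bases before its start site. A match is a run of letters and was not tested as a binding site.

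The partners of Slc7a11 differed less. Slc3a2, the heavy chain 4F2hc on which Slc7a11 and several other light chains depend, stood at 80.4, 99.7 and 77.7 CPM in controls and 90.8, 106 and 78.3 CPM in treated libraries. The groups overlapped, with a log2 fold change of 0.09 ± 0.14 (SE). At a level of 25.2 CPM per kb of exon, Slc3a2 was well above each light chain: Slc7a5, the large neutral amino acid carrier LAT1, at 10.5, Slc7a8 (LAT2) at 9.58, Slc7a7 at 7.43, Slc7a6 at 3.98 and Slc7a11 at 0.0810 CPM per kb. The second heavy chain, Slc3a1, was scarce at 9 to 65 counts, and 26.5% of its exon length is shared with Prepl on the opposite strand, so its counts are uncertain.

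Slc7a7, the light chain y+LAT1 that exports cationic amino acids (ENSMUSG00000000958, chromosome 14, 54369442 to 54417780, minus strand), was the other light chain with non-overlapping groups. It stood at 22.9, 20.9 and 21.1 CPM in controls and 31.5, 25.2 and 26.2 CPM in treated libraries. The highest value was in treated replicate 1, where macrophage markers summed to 38.6 CPM, where controls ran from 31.3 to 71.6 CPM; their part was not tested. Oxa1l on the opposite strand shares 7% of its exon length. Its log2 fold change of 0.36 ± 0.12 (SE) had an unadjusted p of 0.0214 and an edgeR adjusted p of 0.696. Slc7a5 was at 0.20 ± 0.15, Slc7a6 at -0.00080 ± 0.11 and Slc7a8 at -0.19 ± 0.12. Slc7a9, Slc7a10, Slc7a12, Slc7a13 and Slc7a15 were not tested, and of these Slc7a10, the Asc-1 carrier of small neutral amino acids, had counts of 0, 2 and 1 (controls) and 7, 5 and 3 (treated), with 17.9% of its exon length shared with Lrp3 on the opposite strand.

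Among the cationic amino acid transporters, Slc7a3 (CAT3) was on top in treated libraries and the most abundant, Slc7a14, beneath. Slc7a3 (ENSMUSG00000031297, chromosome X, 101079210 to 101086020, minus strand) had counts of 12, 26 and 2 (controls) and 46, 51 and 40 (treated), which is 0.688, 1.00 and 0.135 CPM against 1.37, 1.78 and 3.18 CPM. The groups did not overlap. The log2 difference of 1.72 ± 0.68 (SE) had an unadjusted p of 0.0356 and an edgeR adjusted p of 0.737. Without treated replicate 3 it was 1.30 (unadjusted p 0.0619, edgeR) and without control replicate 3 it was 1.29 (unadjusted p 0.0643, edgeR). The ratio of its summed counts was 2.66, with a 95% interval of 1.86 to 3.89 that covers counting error only. Slc7a14, a lysosomal family member abundant in neurons, stood at 436, 419 and 408 CPM in controls and 369, 360 and 224 CPM in treated libraries. All treated values were below all controls, and most of the gap was in treated replicate 3, and the log2 difference was -0.41 ± 0.19 (SE) with an unadjusted p of 0.0613. Without treated replicate 3 it was -0.21, at an unadjusted p of 0.0128. Slc7a4, a family member without established transport activity, was at 13.0, 10.7 and 12.6 CPM against 10.6, 9.75 and 8.75 CPM, also without overlap, and P2rx6 on the opposite strand shares 13.3% of its exon length. Slc7a1, the housekeeping arginine carrier CAT1, was at 0.04 ± 0.14, and Slc7a2 (CAT2) at 0.23 ± 0.18.

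**Figure D2:**
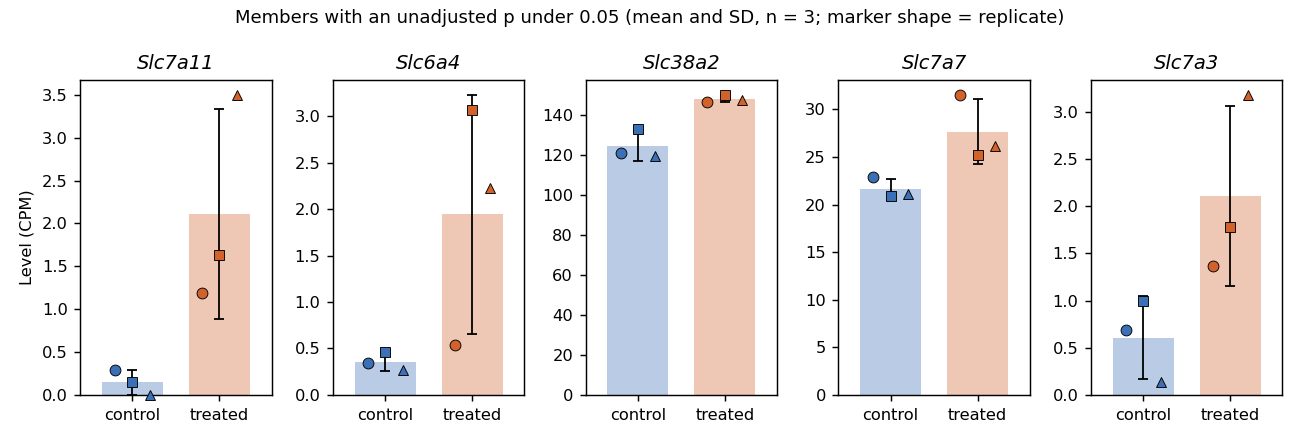
CPM of the 5 transporters with an unadjusted p under 0.05, by group, with bars for the mean, error bars for the SD (n = 3) and a marker for each library. All treated points lie above all control points in each panel, by a wide margin for Slc7a11 and a narrow one for Slc6a4, where treated replicate 1 is at 0.536 CPM and the highest control at 0.462 CPM.

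Slc6a4, the serotonin transporter, was scarce in control ganglia and varied widely among treated ones (ENSMUSG00000020838, chromosome 11, 76998603 to 77032340, plus strand). Control libraries held 6, 12 and 4 counts and treated libraries 18, 88 and 28, or 0.344, 0.462 and 0.270 CPM against 0.536, 3.07 and 2.23 CPM. Treated replicate 1 was barely above the controls and the other 2 were well above. The log2 fold change was 2.38 ± 0.71 (SE), with an unadjusted p of 0.0106 and an edgeR adjusted p of 0.670. The ratio of summed counts was 4.74, with a 95% interval of 3.00 to 7.81, and without treated replicate 2, when the gene no longer passed the filter, it was 2.64, with an interval of 1.55 to 4.60. Mast cells also carry this transporter. Markers of mast cells, a list added after the data were seen, summed to 0.577 to 2.97 CPM in controls and to 0.863, 0.871 and 7.88 CPM in treated replicates 1, 2 and 3, with Fcer1a at 0 in all. Their part in the Slc6a4 values was not tested. The dopamine transporter Slc6a3 had 0 counts in every control and 2, 5 and 0 in the treated libraries, below or near the 3 counts that a 0 allows.

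In the Slc38 family of sodium-coupled neutral carriers, Slc38a2 (SNAT2), a glutamine and alanine carrier induced by amino acid shortage, was higher by a small and even step (ENSMUSG00000022462, chromosome 15, 96687392 to 96699730, minus strand). It stood at 121, 133 and 119 CPM in controls and 146, 150 and 147 CPM in treated libraries. The treated libraries were alike, with an SD of 1.80 CPM. Its log2 fold change of 0.25 ± 0.08 (SE) had an unadjusted p of 0.0176 and an edgeR adjusted p of 0.686. The fold change ran from 0.22 to 0.29 over the other settings. Slc38a1 (SNAT1) was at 0.12 ± 0.14 and Slc38a10 at 0.04 ± 0.09. Without treated replicate 3, Slc38a1 was at 0.25 (unadjusted p 0.0197, edgeR), and without treated replicate 2 it was at -0.04. Slc38a7, a lysosomal glutamine exporter, was at -0.07 ± 0.14, and Slc38a9, the lysosomal arginine sensor of mTORC1, at -0.14 ± 0.10. Over all 6 libraries, Slc38a1, Slc38a10, Slc38a7 and Slc38a9 overlapped between groups. Slc38a6 was at 0.11 ± 0.21 and Slc38a11 at -0.40 ± 0.53, and Slc38a5 and Slc38a8 were not tested, with 16 and 42 counts over all libraries.

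Slc38a3 and Slc38a4, both glutamine and neutral amino acid carriers that are abundant in liver, were far higher in 1 library than in the other 5. Slc38a3 had counts of 7, 3 and 5 (controls) and 142, 5 and 13 (treated), and Slc38a4 had 7, 15 and 11 against 118, 8 and 10. The high library for both was treated replicate 1, the one with the hepatocyte markers at 255 CPM; their part in these values was not tested. Over all libraries the count ratios were 8.29 for Slc38a3 and 3.20 for Slc38a4. Without treated replicate 1 they were 1.69, with an interval of 0.806 to 3.61, and 0.769, with an interval of 0.408 to 1.41. These intervals, too, cover counting error only.

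The 4 member glutamate transporters of the Slc1 family were low in these ganglia, together 0.935% of the summed per-length level of all members. That share leaves out the glutamate carrier Slc1a3, which is not a member and stood at 1.77 CPM per kb. The highest of the 4 members, Slc1a6, stood at 1.75 CPM per kb. Slc1a2 (GLT-1), the main glutamate carrier of brain astrocytes, stood at 8.66, 9.69 and 6.56 CPM in controls and 9.61, 11.2 and 8.83 CPM in treated libraries, with overlap and a fold change on the log2 scale of 0.25 ± 0.20 (SE). Slc1a6 (EAAT4), known from Purkinje cells, was at 5.16, 4.77 and 4.19 CPM against 3.21, 3.73 and 1.51 CPM. Its treated values were all below its controls. The log2 fold change was -0.72 ± 0.36, with an unadjusted p of 0.0807, and it was -0.44 without treated replicate 3. Slc1a1 (EAAT3), the general neuronal carrier, was at -0.34 ± 0.39, and 31.9% of its exon length is shared with 4430402I18Rik on the opposite strand. The retinal carrier Slc1a7, at 6 to 25 counts, was at 0.71 ± 0.62. Of the neutral amino acid exchangers in this family, Slc1a4 (ASCT1) was at 0.03 ± 0.13. Slc1a5 (ASCT2), a glutamine carrier of dividing and immune cells, was at 15.8, 19.4 and 15.8 CPM in controls and 15.8, 26.2 and 48.0 CPM in treated libraries. Its order over the treated libraries was that of the fat cell and macrophage markers, while control replicate 2, the highest control, had the lowest sums of both; their part in it was not tested, and its log2 fold change went from 0.81 ± 0.38 to 0.30 without treated replicate 3.

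Carriers of GABA, taurine and creatine showed no member with a p under 0.05. Slc6a6, the taurine transporter, and Slc6a8, the creatine transporter, were the most abundant, at 6.52 and 5.69 CPM per kb. Slc6a6 stood at 49.6, 47.4 and 56.6 CPM in controls and 42.3, 53.7 and 81.0 CPM in treated libraries, and Slc6a8 at 28.0, 35.2 and 22.0 CPM against 27.1, 36.2 and 29.4 CPM. Both overlapped between groups, and Slc6a6 went from a log2 fold change of 0.20 ± 0.23 to -0.09 without treated replicate 3. The GABA transporter Slc6a11 (GAT3) was at -0.01 ± 0.35. Slc6a13 (GAT2), which is carried by meningeal and vascular fibroblasts, ran from 2.00 to 5.61 CPM in controls and was at 1.58, 1.67 and 7.88 CPM in treated libraries. Fibroblast markers summed to 476, 739 and 2138 CPM in the same treated libraries and to 658 to 1136 CPM in controls; their part was not tested. Without treated replicate 3, Slc6a13 was at a log2 fold change of -1.22 with an unadjusted p of 0.0190, and with it at -0.08 ± 0.71. The betaine carrier Slc6a12 was at -0.14 ± 0.50. The glycine carrier Slc6a9 (GlyT1) was at -0.06 ± 0.41, and 27.8% of its exon length is shared with Ccdc24 on the opposite strand.

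Of the 5 tested amino acid and orphan carriers in the Slc6 family, none had an unadjusted p under 0.05. Slc6a17 (NTT4), a neutral amino acid carrier of synaptic vesicles, stood at 215, 217 and 187 CPM in controls and 185, 206 and 119 CPM in treated libraries. Slc6a15 (B0AT2), a neuronal carrier of branched-chain amino acids and proline, stood at 136, 125 and 140 CPM against 133, 118 and 77.3 CPM. In both, treated replicate 3 was the lowest of the 6 libraries and the other treated libraries were near or within the control range. Their log2 fold changes of -0.28 ± 0.19 and -0.28 ± 0.19 (SE) were -0.08 and -0.09 without that library. Slc6a19 (B0AT1), the main neutral amino acid carrier of gut and kidney, was at 7.22, 8.54 and 7.70 CPM against 6.49, 6.83 and 6.76 CPM, with no overlap, at -0.23 ± 0.17. Slc6a7, the brain proline carrier, was at 0.11 ± 0.34 and the orphan Slc6a16 at -0.57 ± 0.87; Slc6a14, Slc6a18 and Slc6a21 were not tested, with 15, 8 and 5 counts over all libraries. In this list 4 of the 5 were negative, where 47.2% of all genes were, with a median of -0.28 beside 0.02 over all genes.

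Slc36a1 (PAT1), a proton-coupled carrier of small amino acids that sits on lysosomes, had the highest level per length of all 56 members, 66.8 CPM per kb (ENSMUSG00000020261, chromosome 11, 55204350 to 55236330, plus strand). It stood at 418, 436 and 385 CPM in controls and 402, 368 and 245 CPM in treated libraries. The groups overlapped, and the log2 fold change of -0.29 ± 0.18 (SE) was -0.10 without treated replicate 3. Slc36a4 (PAT4) was at -0.05 ± 0.10. Slc36a2 (PAT2), a known surface marker of brown fat cells, was at 7.17, 12.4 and 6.96 CPM in controls and 7.62, 16.3 and 26.9 CPM in treated libraries. It was highest in the 2 treated libraries that also had the highest fat cell markers, 57.7 and 483 CPM, while the highest control, replicate 2, had the lowest fat cell sum among controls, 12.0 CPM. The part of these cells was not tested. The log2 fold change of 0.92 ± 0.47 was 0.42 without treated replicate 3. Slc36a3 was not tested, with 10 counts over all libraries.

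**Figure D3:**
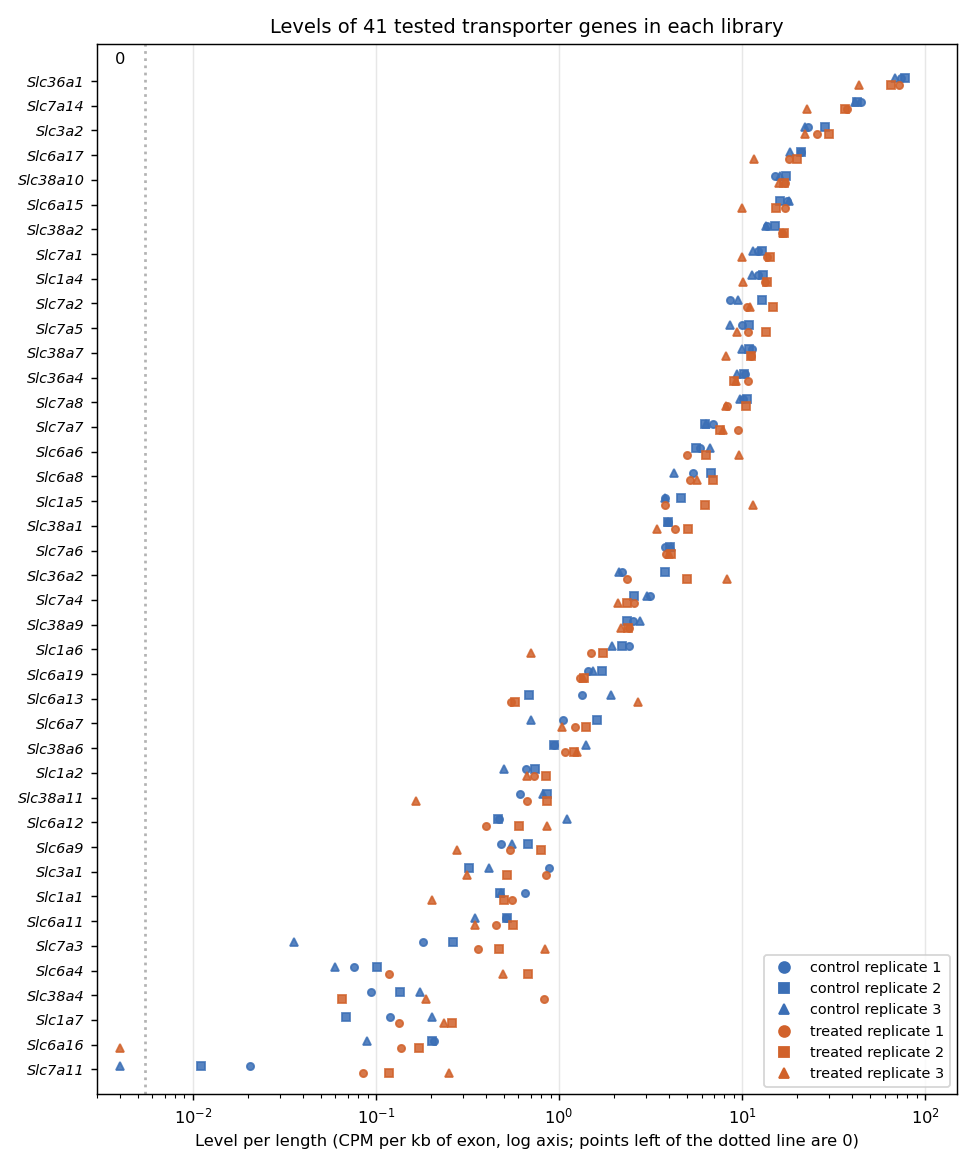
Level per length in CPM per kb of exon, on a log axis, for 41 of the 42 tested transporters in each of the 6 libraries, ordered by mean level. Levels ran from 66.8 CPM per kb for Slc36a1 down to 0.0810 CPM per kb for Slc7a11, and treated replicate 3 (orange triangles) was the lowest library for 18 of the 42.

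By level per length the leading members were Slc36a1 at 66.8, Slc7a14 at 37.6, Slc3a2 at 25.2, Slc6a17 at 18.3, Slc38a10 at 16.5, Slc6a15 at 15.7, Slc38a2 at 15.4, Slc7a1 at 12.4 and Slc1a4 at 12.3 CPM per kb (means over 6 libraries). Neighbours in the order of all 42 overlapped over the 6 libraries in 39 of 41 pairs; the exceptions were Slc3a2 over Slc6a17 and Slc38a6 over Slc1a2. The Slc36 carriers together took 24.5% of the summed per-length level, the cationic carriers 19.5%, the Slc38 carriers 15.7% and the Slc6 amino acid carriers 11.2%. Glycine and monoamine carriers took 0.177% and 0.0829%, where the monoamine share leaves out Slc6a2, which is not a member and stood at 0.513 CPM per kb. The summed level of all members was 335 ± 17.1 CPM per kb in controls and 320 ± 38.1 CPM per kb in treated ganglia (SD, n = 3), which was within the spread.

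Treated replicate 3 was the lowest of the 6 libraries for 18 of the 42 transporters (42.9%, against 34.2% of all genes) and the highest for 6 (14.3%, against 34.4%). Treated replicate 2 was the highest for 14 (33.3%, against 12.6%). The transporters that were lowest in treated replicate 3 included Slc36a1, Slc7a14, Slc6a17, Slc6a15 and Slc1a6, at -0.75, -0.91, -0.79, -0.79 and -1.52 on the log2 scale relative to the control mean. Nodose neuron markers stood at -1.60 in that library, with all 6 markers below the controls in all treated libraries, and jugular neuron markers stood at 1.49, with 5 of 6 above the controls; their part in the transporter values was not tested.

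**Figure D4:**
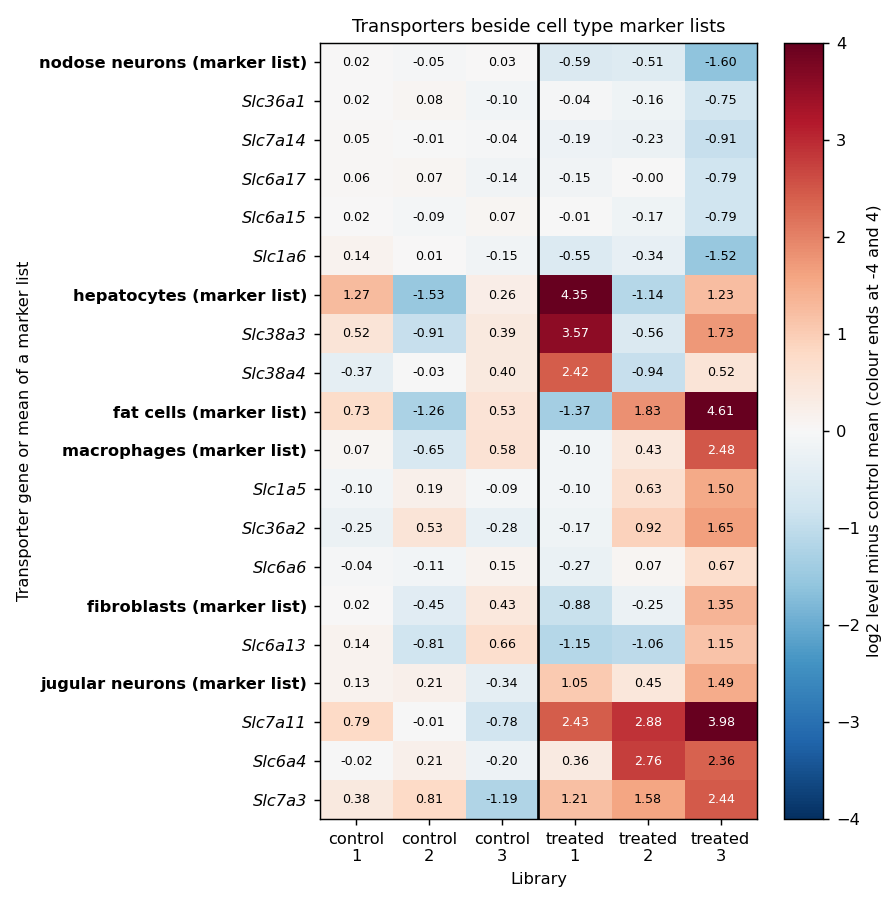
Log2 level minus the control mean in each library for 14 transporters (italic) and for the mean of 6 marker lists (bold), with the value in each cell. Slc38a3 and Slc38a4 are high in treated replicate 1 beside the hepatocyte list, Slc1a5 and Slc36a2 in treated replicate 3 beside the fat cell and macrophage lists, and Slc7a11 is high in all 3 treated libraries. The jugular neuron list is above the control mean in all 3 treated libraries, and the nodose neuron list is below it.

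Genes that work with these carriers were read from 6 lists, and none of their genes passed an adjusted p of 0.05. Of 18 tested genes of the ATF4 amino acid response, 14 were positive, where 52.8% of all genes were, and the median was 0.15 beside 0.02. Higher levels at an unadjusted p under 0.05 were seen for 2, where the share over all genes was 4.0%; Psat1, an enzyme of serine synthesis, was at 0.44 ± 0.17 (SE) and the mitochondrial serine enzyme Shmt2 at 0.29 ± 0.12. Atf4 itself was at -0.0036 ± 0.10, and the ATF4 targets Asns and Trib3 at 0.08 ± 0.13 and 0.32 ± 0.38. Chac1, also on the list, was at 0.62 ± 0.27 with non-overlapping groups and an unadjusted p of 0.0521 in edgeR. Among 12 genes of glutathione and cystine use the median was 0.02, and 2 were higher at an unadjusted p under 0.05, where the share over all genes was 4.0%. Srxn1, which repairs oxidised peroxiredoxins, was at 145, 140 and 146 CPM against 185, 205 and 153 CPM, a log2 fold change of 0.33 ± 0.12 without overlap. Cbs, an enzyme that makes cysteine from homocysteine and is abundant in liver, was at 0.860, 0.346 and 0.405 CPM against 2.32, 0.731 and 3.34 CPM, so that treated replicate 2 lay within the controls. Gclc and Gclm, the subunits that make the glutathione precursor, were at -0.07 ± 0.11 and -0.25 ± 0.15.

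Of 7 tested vesicular transporters, Slc17a8 (VGLUT3) alone had an unadjusted p under 0.05, where the share over all genes was 6.67%. It stood at 2.35, 1.96 and 1.55 CPM in controls and 3.99, 2.82 and 7.0 CPM in treated libraries, or 1.22 ± 0.40 (SE) as log2 fold change with an unadjusted p of 0.0173. Slc17a6 (VGLUT2), the main vesicular glutamate carrier here at 268 ± 12.6 and 239 ± 49.4 CPM (SD, n = 3), was at -0.16 ± 0.15, and the monoamine carrier Slc18a2 was at -0.78 ± 0.40. Of 9 genes of glutamate, glutamine and GABA metabolism, 7 were negative, where 47.2% of all genes were, with a median of -0.16 beside 0.02. At an unadjusted p under 0.05 there was 1 higher and 1 lower, where the shares over all genes were 4.0% and 2.67%. Glul, the glutamine synthetase of glia, was at 186, 188 and 180 CPM against 185, 251 and 304 CPM, so that treated replicate 1 lay within the controls, and Aldh5a1, an enzyme of GABA breakdown, was at -0.41 ± 0.17 with no overlap. The 20 genes of amino acid sensing by mTORC1 had a median of -0.05 and no p under 0.05, with Rragb at -0.34 ± 0.15 and Lamtor3 at -0.31 ± 0.19. The 10 other amino acid carriers had a median of -0.02, with Slc16a10, an aromatic amino acid carrier, at -0.42 ± 0.22 and the mitochondrial carrier Slc25a29 at 0.46 ± 0.26, both with non-overlapping groups.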

How the data were processed

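Counts of exonic reads per gene were deposited by the authors, 1 file per library, from strand-specific libraries made of about 6 ng of total RNA. RNA integrity is given only as a range shared by all libraries, so the value of any single library is not known. Per the submitters' processing notes, bcl2fastq 2.20, STAR 2.7.7a and the mm10 build were used; no source used here names the counting program, the annotation or whether counting used strand. Symbols are those of the files, and coordinates and exon lengths come from GENCODE M21 (GRCm38). All 56 members were matched there by gene ID.

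The fit over all genes used edgeR 4.0.16 (R 4.3.3): filterByExpr with a minimum count of 10, TMM scaling, a robust quasi-likelihood F test and Benjamini-Hochberg adjustment over 16019 genes with a threshold of 0.05. SE is the size of the log2 fold change over the square root of F. CPM use TMM-adjusted library sizes. CPM per kb divides by the union of annotated exons, whichever transcripts are in use. Ranks and shares by level per length rest on this union, which was 13922 bases for Slc7a11 and 17236 for Slc38a1. Log2 levels of single libraries use a prior count of 2. With 3 against 3 libraries an exact permutation test cannot go below 0.1, so none is given. The fit was tested on simulated data. Alternatives were other scalings and filters, the replicate block, leaving out each library, DESeq2 1.42.0 and limma-voom (limma 3.58.1).

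Members, gene lists and tests were chosen with earlier results of these data known. Named are members with an unadjusted p under 0.05 at 1 CPM or more, the 2 of highest level per length in each role list, the classical transmitter carriers, and in each pathway list the 2 genes of smallest p at 1 CPM or more. Other genes, among them Slc38a3, Slc38a4, Slc36a2, Slc6a13, Slc6a19, Slc7a4, Slc17a6 and Chac1, were picked for naming once their values had been seen. The symbol Ddit3 stands on 2 genes. The values of 1 tested member, which is counted among the 42, are not reported here.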

Additional observations from a re-analysis of the deposited data

How the results depend on the processing

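The number of genes called at an adjusted p of 0.05, 0 in the reported edgeR fit, was 26 without the low-count filter, 1 with the replicate block, 89 with DESeq2 and 8 with limma-voom and sample weights, and ran from 0 to 9 when each library was left out, with 7 without treated replicate 1 and 9 without treated replicate 3. At an unadjusted p under 0.05 the reported fit had 1068 genes. The number of transporters called was 1 with DESeq2 (Slc7a11) and 0 under all other settings; at a threshold of 0.1 the reported fit still called 0, and the fit without a filter gave Slc7a11 an adjusted p of 0.0771. Transporters with an unadjusted p under 0.05 numbered 5 higher and 0 lower. The higher count was 2 with the filter at 5 CPM in 3 libraries, which leaves 26 transporters, and 8 with limma-voom and sample weights. It ran from 2 to 7 when each library was left out, with 3 without control replicate 1 and 2 without control replicate 3. The lower count was 1 without a filter, 1 with DESeq2, 1 with limma-voom, 1 with sample weights and 4 with the replicate block, and ran from 0 to 3 when libraries were left out, with 3 without treated replicate 1 and 2 without treated replicate 2 or treated replicate 3. The cause was not tested. The median of the transporters ran from -0.03 to 0.14 when each library was left out.

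Same-numbered libraries correlated in their deviations from the group means at 0.014, 0.564 and 0.488, and control replicate 1 correlated best with treated replicate 3, at 0.125, so the numbers were not taken as pairs. Fits with the replicate block gave Slc7a11 a log2 fold change of 3.58 at an adjusted p of 0.421.

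Of 366 values under other settings for the 25 tested members named by p, level or transmitter role, 23 changed sign, all in genes within about 1 SE of 0. Members picked once their values had been seen were not counted there. Among those, Slc38a4 went from a log2 fold change of 1.44 ± 0.88 (SE) to -0.18 without treated replicate 1. Slc6a9 was at 0.29 with sample weights, and Slc6a11 at 0.0037 with library size only, 0.0065 with limma-voom and 0.11 with sample weights. When each library was left out, log2 fold changes ran from -0.052 to 0.15 for Slc1a4, -0.0080 to 0.085 for Slc38a10, -0.34 to 0.63 for Slc3a1, -0.033 to 0.21 for Slc3a2, -0.20 to 0.13 for Slc6a11, -0.091 to 0.38 for Slc6a6, -0.036 to 0.30 for Slc6a8, -0.46 to 0.23 for Slc6a9 and -0.057 to 0.18 for Slc7a1. Depth limits the scarce members: the 14 untested ones had at most 175 counts over all libraries, and Slc7a11 had 9 over the controls. The 175 counts belong to Slc38a3, which failed the filter with 142 of them in treated replicate 1.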
